A study of Mus musculus with 30 samples.

Results

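Solute carriers are the largest group of membrane proteins that move small molecules, and their genes are named Slc followed by a family number. The members were taken by name. All array probes with a single mouse symbol beginning with Slc, number, letter, number were kept if measured on at least 24 of the 30 arrays. Slc2a1 was left out by the same rule. This gave 207 probes for 196 genes, out of 16124 probes and 11980 named genes that passed the same requirement. The array carried 264 such probes for 244 genes, so 57 probes had too few values and were not analysed here. The 11 genes with more than 1 probe are counted by probe below, and a gene's value is that of the probe measured on the most arrays. All 207 are called solute carrier probes by their names, but 5 of them, for 4 genes, are not carriers themselves.

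A solute carrier binds its substrate on one side of a membrane and releases it on the other, either down the gradient of that substrate or coupled to the movement of sodium, protons or another solute. Different families serve the cell surface, where they import glucose, amino acids, nucleosides, metals and vitamins, the inner mitochondrial membrane, where the Slc25 family exchanges metabolites between cytosol and matrix, and the Golgi, lysosome and vesicles. In mammary tissue they supply the substrates and ions of milk, and in growing tumour cells the amino acid and nucleoside importers feed protein and nucleic acid synthesis.

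RNA came from mammary carcinomas of mice with a c-Myc transgene, and all 15 extracts share that genotype. The labels do not name the promoter that drives the transgene, the strain, the age or any treatment, and there is no group without the transgene. Each extract was hybridised on 2 arrays against 1 reference RNA, once in each channel, and what that reference was made from is not stated in the labels. Extract codes hold a number and a letter whose meaning the labels do not state: number 579 marks 5 extracts (579-A, 579-B, 579-D, 579-E, 579-F), number 546 marks 2, and 8 further extracts carry a number of their own. The labels place 12 extracts under work on the epithelial to mesenchymal transition, 550-A and 561-B under tumour progression, and 595-A under one heading on each array. Nothing in them says that each extract is a different animal, and the p-values below therefore reflect the spread among extracts, which may in part be technical.

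Values are log2 ratios to the reference, averaged over the 2 arrays of an extract. Which channel was divided by which is not stated. After the arrays with the extract in channel 2 were turned, the Myc probe stood at 3.16 ± 0.11 (SE, n = 15 extracts) and was positive in 15 of 15, from 2.38 to 3.68. The positive side is therefore called the Myc side, and it is likely, though not settled, that it is the side on which the carcinoma exceeded the reference. All 8 epithelial marker probes (Epcam, Cdh1, keratins, claudins and Spint2) and all 7 milk and alveolar probes lay on the Myc side past the threshold, and 5 of 7 fibroblast probes lay on the opposite side. All 5 endothelial probes also passed on the Myc side, with a median of 0.85, so the opposite side did not hold every type of stromal cell. Over extracts, the mean of the epithelial probes ran from 1.89 to 3.49, of the milk probes from 1.35 to 7.65 and of the fibroblast probes from -2.76 to 0.71. In bulk RNA, fewer cells of a type and less RNA per cell cannot be told apart, and the part of cell composition in the values below was not tested. Arrays held 13434 to 21991 values. The thinnest extracts were 546-A, where 29 of the 207 solute carrier probes had no value and 73 rested on 1 array, and 548-A, with 19 and 54. The 2 arrays of an extract, once turned, correlated over solute carrier probes at r from -0.12 to 0.55 with a median of 0.24, while arrays of different extracts in the same channel reached medians of 0.46 and 0.44. Since these figures show a strong effect of orientation, the means in channel 1 and channel 2, in that order, are printed for the leading genes and for each named solute carrier past the threshold whose orientations differ in sign.

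Solute carrier probes lay on the Myc side more often than probes at large. Tested against 0 with limma, 87 of 207 (42.0%) passed an adjusted p of 0.05 on the Myc side, where 27.1% of all probes tested did, and 21 (10.1%) passed on the opposite side, where 15.6% of all probes did. The other 99 did not pass. Among the 87 were 2 probes of Slc7a6os, which is not a carrier itself. The shares of 27.1% and 15.6% over all probes are the background for each family and list count made with both orientations averaged. Counts in other settings have a background of their own. The median ratio was 0.35 over solute carriers and 0.12 over all probes, and the solute carrier median lay above that of all probes in 15 of 15 extracts. No test of the group against other genes was made, since its members were chosen with earlier results of these data known.

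The split of calls moved with the scaling, while the solute carrier median stayed above that of all probes in each setting tried. With each array's median subtracted, the calls were 78 on the Myc side against 28 on the opposite one, and the medians were 0.24 for solute carriers and 0.02 for all probes. From arrays with the extract in channel 1 alone the counts were 66 and 42 and the medians 0.10 and -0.15, and from channel 2 alone the counts were 107 and 20 and the medians 0.61 and 0.41. The Myc side therefore held 80.6% of the solute carrier calls with both orientations averaged, 73.6% after centring, 61.1% in channel 1 and 84.3% in channel 2, against 63.5%, 53.5%, 39.1% and 77.0% over all probes. Among the calls, 80 of the 87 on the Myc side (38.6% of members, with a background of 23.5%) and 19 of the 21 on the opposite side (9.18%, background 13.6%) had the same sign in both orientations.

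**Figure D1:**
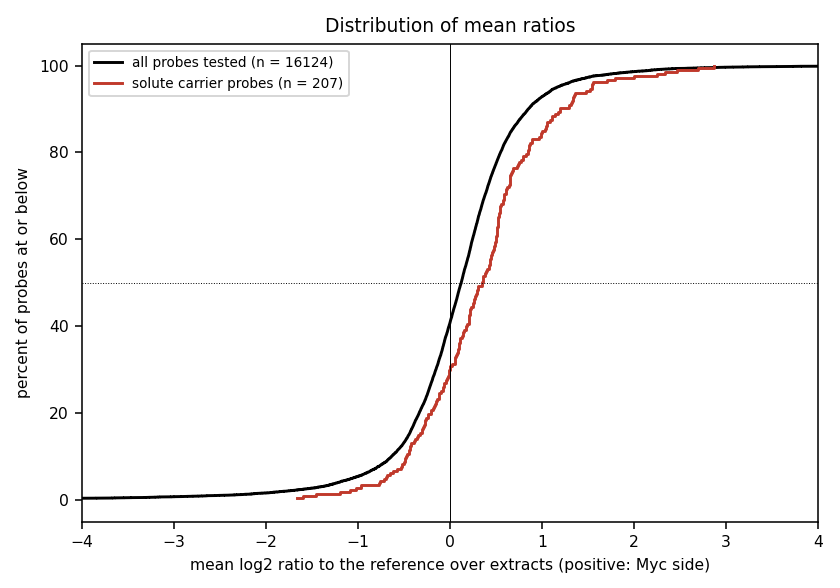
Cumulative percent of probes (vertical axis) against the mean log2 ratio to the reference over extracts (horizontal axis, positive toward the Myc side) for all 16124 probes tested in black and the 207 solute carrier probes in red. The red curve lies to the right of the black one through the middle of the range, with medians of 0.35 and 0.12.

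**Figure D2:**
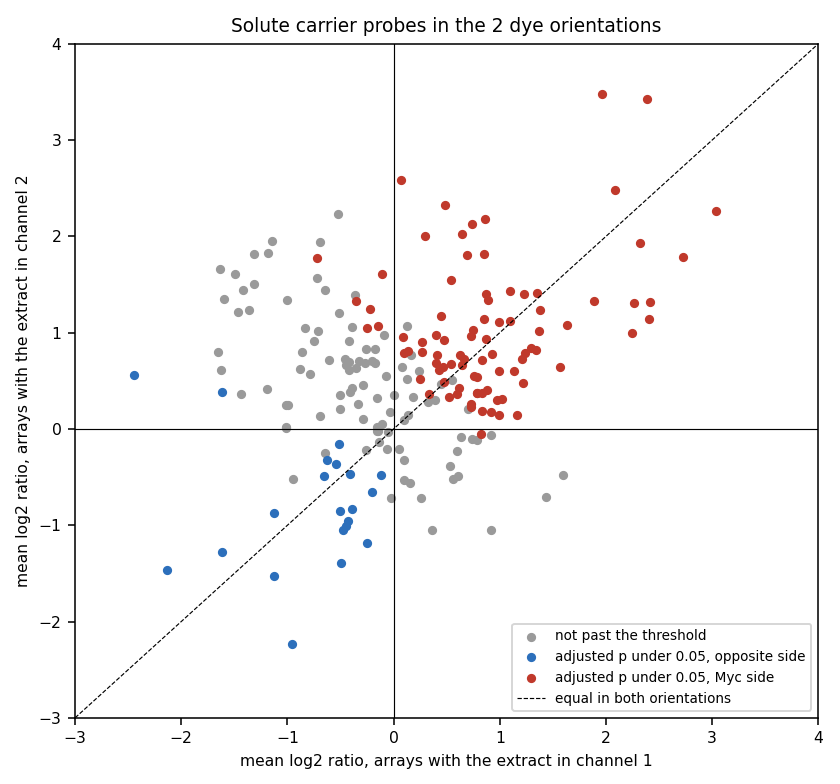
Each point is a solute carrier probe, with its mean log2 ratio on arrays with the extract in channel 1 (horizontal) and in channel 2 (vertical), coloured by its call on the average of both. Of the 207 probes, 85 have opposite signs in the 2 orientations, and most of these are negative in channel 1 and positive in channel 2; 99 probes are grey, past neither threshold.

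Opposite signs in the 2 orientations were found for 85 solute carrier probes (41.1%) and for 47.8% of all probes. For such probes the average of both orientations is small beside the effect of orientation, and the sign of 1 array cannot be read as a difference between carcinoma and reference. Dim members, 30 in all (14.5%, and 12.2% of all probes), overlapped with these in 21 cases. They were dim, in that more than 50% of their values were, at 3 decimals, those of a fraction whose numerator and denominator are whole numbers up to 20; of them, 3 passed on the Myc side and 1 opposite to it.

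The promoters of the group were set beside these calls because Myc binds the E-box, and the letters CACGTG are its best known form. RefSeq windows of GRCm38.p6, from 250 bases before to 50 bases after a transcription start, matched 155 of the 196 genes. CACGTG, which reads the same on both strands, occurred in 27 of them (17.4%), in 10.9% of the 9346 genes with a window among all probes tested, and in 8.09% of all 27025 genes of the table. Counted by window, where a gene with several starts enters once for each, the shares were 13.9%, 9.20% and 7.15%. Within the group the motif was found in 12 of 64 genes on the Myc side (18.8%), 2 of 15 on the opposite side (13.3%) and 13 of 76 that did not pass (17.1%). These shares were not tested against each other. The 8-base amino acid response sequence TTGCATCA, also searched on both strands, occurred in 4 of 155 genes (2.58%) and in 0.835% of genes on tested probes. By call it was found in 1 of 64 genes on the Myc side (1.56%), 0 of 15 on the opposite side and 3 of 76 that did not pass (3.95%), likewise without a test. A match is a description of these letters and not evidence of binding.
The next stretches show the E-box, in capitals, with its flanks in 4 genes of the Myc side, 1 that did not pass and 1 of the opposite side, each upstream of the start and written in the direction of the gene.
Slc5a1 (Myc side, chr5:33104029-33104128, plus strand): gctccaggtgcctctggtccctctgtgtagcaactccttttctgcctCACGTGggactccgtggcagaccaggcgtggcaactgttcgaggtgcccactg
Slc29a1 (Myc side, chr17:45595269-45595368, minus strand): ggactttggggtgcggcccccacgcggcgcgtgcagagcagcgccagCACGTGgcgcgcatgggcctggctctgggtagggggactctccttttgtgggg
Slc35e3 (Myc side, chr10:117746386-117746485, minus strand): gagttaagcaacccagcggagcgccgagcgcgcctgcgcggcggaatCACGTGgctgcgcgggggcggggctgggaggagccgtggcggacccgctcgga
Slc30a5 (Myc side, chr13:100833436-100833535, minus strand): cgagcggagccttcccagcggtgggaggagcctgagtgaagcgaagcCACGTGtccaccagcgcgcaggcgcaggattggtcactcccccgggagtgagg
Slc16a1 (did not pass, chr3:104638417-104638516, plus strand): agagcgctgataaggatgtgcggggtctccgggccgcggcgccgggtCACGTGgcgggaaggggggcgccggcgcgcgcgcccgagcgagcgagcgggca
Slc25a36 (opposite side, chr9:97111176-97111275, minus strand): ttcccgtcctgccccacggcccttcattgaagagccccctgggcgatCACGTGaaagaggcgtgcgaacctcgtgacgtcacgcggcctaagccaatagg
The motif ended 138, 70, 75, 56, 195 and 182 bases before the start in these genes, in that order.

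The solute carriers farthest on the Myc side carry different cargoes. Slc28a3, a sodium-coupled importer of nucleosides, was lowest at 0.79 in 579-D, had a median of 3.07 and reached 5.59 in 547-A. All 15 extracts were positive, with a mean of 2.87 ± 0.36 (SE, adjusted p = 6.46e-06), which is a 7.29-fold ratio, and with 2.38 and 3.42 in the 2 orientations. Slc44a3, a choline transporter-like gene, ran from 1.80 (550-A) over a median of 2.48 to 5.02 (567-B). It averaged 2.69 ± 0.23 (adjusted p = 6.18e-08), with 1.97 and 3.48 in the 2 orientations, and was also positive throughout. The sodium-glucose cotransporter Slc5a1 ran from 0.74 (579-E) over 2.49 to 3.63 (548-A) in the 14 extracts that measured it, with a mean of 2.33 ± 0.22 (adjusted p = 3.32e-07) and orientation means of 2.09 and 2.48. Slc15a2, which imports di- and tripeptides with protons, averaged 2.46 ± 0.39 (n = 14, adjusted p = 7.41e-05), or 3.04 and 2.26 by orientation. It was positive in 13 extracts and at 0.00 in 548-A, so it missed the requirement of 1 side in every extract and is named after its value was seen. In all, 20 probes passed on the Myc side and were positive in every extract that measured them, and 4 passed on the opposite side and were negative in every one. The same count was not made over all 16124 probes, whose calls also leaned toward Myc, with 4375 that way and 2514 the other. The split of 20 to 4 therefore has no background here and is not read as a trait of solute carriers.

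**Figure D3:**
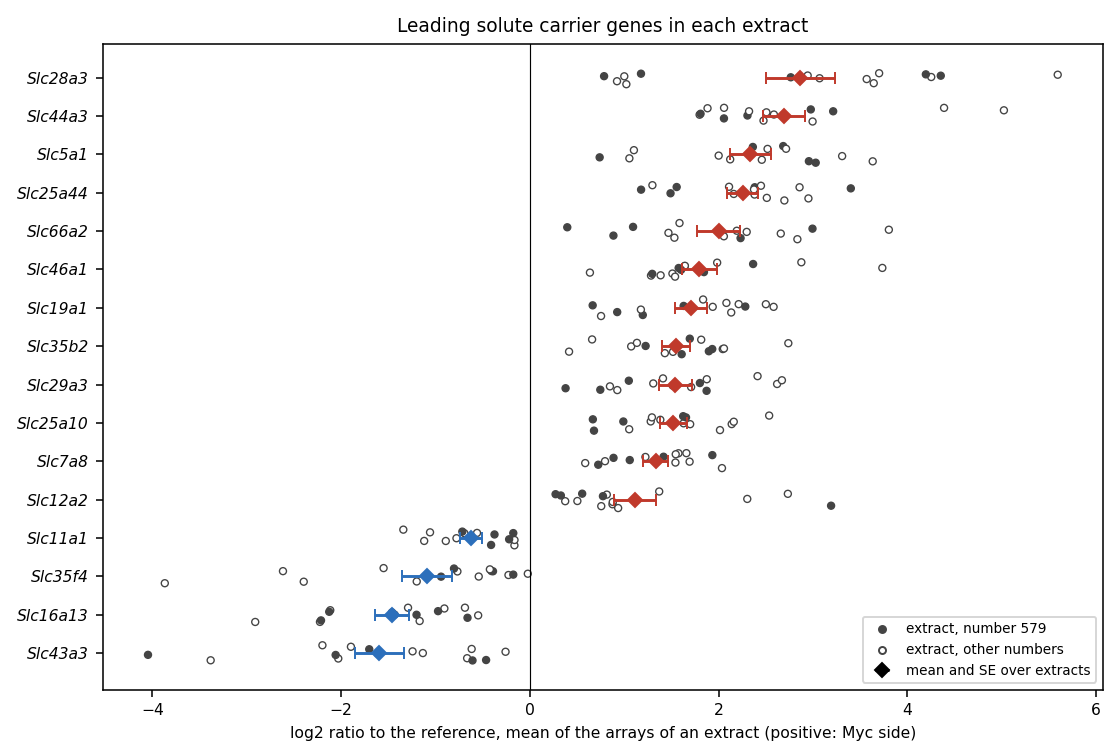
Log2 ratio to the reference (horizontal axis, positive toward the Myc side) in each extract for the 12 genes with the largest means on the Myc side and the 4 on the opposite side among those on 1 side in every extract; filled points are number 579, open points other numbers, and diamonds with bars give the mean and SE over extracts. Slc28a3 spans 0.79 to 5.59 while Slc7a8 spans 0.59 to 2.04, and filled and open points overlap for every gene shown.

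Amino acid carriers lay on the Myc side without exception among those that passed: 15 of 29 probes were on the Myc side, 0 on the opposite one and 14 not past the threshold, and a median of 0.51. The median kept its sign after centring (0.39) and in either orientation (0.49 and 0.71), although centring added 3 calls on the opposite side and channel 1 alone gave 6. Over all 16124 probes, 6912 passed after centring, 3695 of them on the Myc side. In channel 1 alone 8900 passed, 3484 of them on the Myc side, so calls on the opposite side were more common there among probes at large too. Slc7a5, which exchanges large neutral amino acids across the cell surface, ran from -0.06 in 550-A over a median of 1.29 to 2.39 in 579-F. It averaged 1.36 ± 0.18 (SE, n = 15, adjusted p = 1.06e-05), or 1.64 and 1.08 by orientation, and only 550-A was not above 0. Its obligate partner Slc3a2, the heavy chain that carries it to the membrane, lay nearer to 0 at 0.48 ± 0.13 (adjusted p = 0.00562), from -0.33 to 1.44, and did not pass on channel 2 arrays alone (0.23). The related exchanger Slc7a8 stood at 1.33 ± 0.13 (n = 14, adjusted p = 5.42e-07), or 0.85 and 1.82 by orientation, with its lowest extract at 0.59. Every extract that measured Slc7a8 was therefore on the Myc side, which did not hold for Slc7a5 or Slc3a2.

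Sodium-coupled importers of neutral amino acids differed in call. The glutamine importer Slc1a5 ran from -0.73 (550-A) over 0.84 to 2.0 (561-B), with a mean of 0.75 ± 0.16 (adjusted p = 0.00111). Slc38a1, a sodium-coupled importer of glutamine, averaged 1.19 ± 0.22 (adjusted p = 0.000333), or 1.37 and 1.01 by orientation, with a range from -0.72 (550-A) to 3.05 (546-A), so its extracts spread widely around that mean. Its relative Slc38a2, which is known for induction by amino acid shortage, averaged 0.30 ± 0.12 and did not pass (adjusted p = 0.0526). It did pass in channel 1 alone, with 1 mean per extract number, with probes on all arrays and without dim probes. After centring and in channel 2 alone it did not. The exchanger of small neutral amino acids Slc1a4 (-0.27 ± 0.14), the glycine importer Slc6a9 (-0.12 ± 0.15) and the neutral amino acid importer Slc6a19 (-0.40 ± 0.20) did not pass. Slc38a3, of the family of Slc38a1 and Slc38a2, passed on the Myc side (1.30 ± 0.32, adjusted p = 0.00352). So did Slc6a20b, of the family of Slc6a9 and Slc6a19 (0.99 ± 0.21, adjusted p = 0.00123). Slc6a14, a broad importer of neutral and cationic amino acids, stood at 0.65 ± 0.15 (adjusted p = 0.00152). The glutamate carrier Slc1a3 averaged 1.47 ± 0.29 (adjusted p = 0.000541), more in channel 2 (2.13) than in channel 1 (0.74). For its relative Slc1a1 the probe measured on most arrays gave 1.17 ± 0.28 (adjusted p = 0.00293). The other, a dim probe, gave -0.31 ± 0.23 (adjusted p = 0.309), so the probes of Slc1a1 did not give 1 answer.

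The cationic amino acid importers of the Slc7 family did not pass. Slc7a1 averaged 0.51 ± 0.27 (adjusted p = 0.146), with 1.60 in channel 1 and -0.48 in channel 2. The 2 probes of Slc7a2 gave -0.42 ± 0.19 (adjusted p = 0.0793) and 0.36 ± 0.22 (adjusted p = 0.203), and Slc7a3 gave -0.33 ± 0.26 (adjusted p = 0.341). The cystine importer Slc7a11 was on the array with values on fewer than 24 arrays. Lysosomal carriers differed among themselves: Slc36a1, which exports small amino acids from lysosomes, stood at 0.73 ± 0.15 (n = 14, adjusted p = 0.000638) and the lysosomal arginine sensor Slc38a9 at -0.24 ± 0.19 (n = 13, adjusted p = 0.355). Of 12 genes known to respond to amino acid shortage, outside the solute carriers, 2 passed on the Myc side (Cebpb at 1.41 and the mitochondrial serine enzyme Shmt2 at 0.57) and 3 on the opposite side (Ddit3 at -2.17, Cth at -0.99 and Sesn2 at -0.56), while Atf4 (-0.33) and Asns (-0.09) did not pass.

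**Figure D4:**
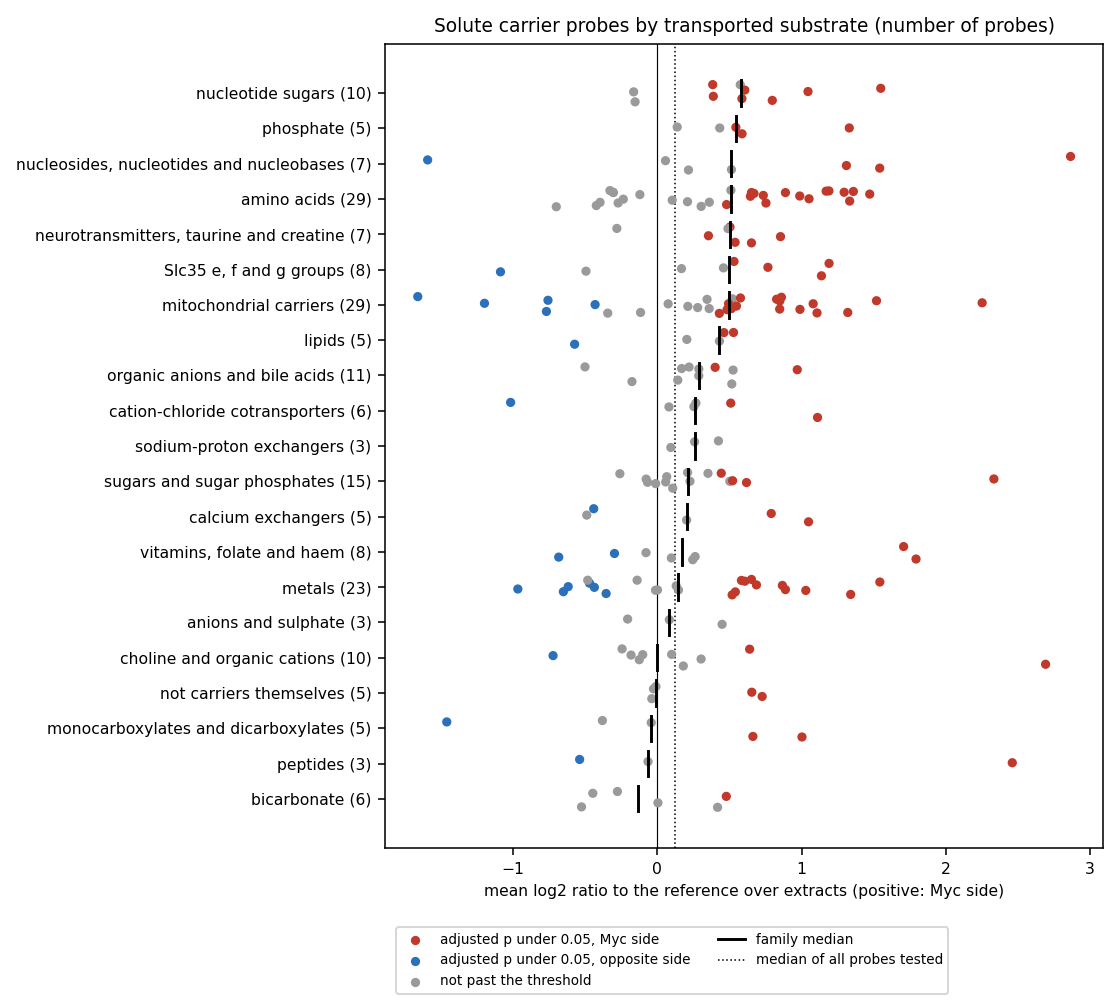
Mean log2 ratio to the reference over extracts (horizontal axis) for each solute carrier probe, in rows by transported substrate with the number of probes in brackets; red and blue points passed an adjusted p of 0.05 on the Myc and the opposite side, grey points did not, black ticks are family medians and the dotted line is the median of all probes tested, 0.12. Amino acid and nucleotide sugar carriers have red and grey points and no blue ones, while metal and mitochondrial carriers have both colours.

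Mitochondrial carriers of the Slc25 family were the other large class, with 16 of 29 probes on the Myc side, 5 on the opposite one and a median of 0.49, which stayed positive after centring (0.40) and in both orientations (0.53 and 0.37). Slc25a44, which brings branched-chain amino acids into mitochondria, lay from 1.18 (579-D) over 2.38 to 3.40 (579-F). Its mean of 2.25 ± 0.16 (adjusted p = 9.21e-09) was the highest of the family, with 2.72 and 1.78 in the 2 orientations. The dicarboxylate carrier Slc25a10 averaged 1.52 ± 0.14 (adjusted p = 2.38e-07), or 0.86 and 2.18 by orientation, and was positive in 15 of 15 extracts, from 0.67 to 2.54. Carriers that serve central metabolism followed at lower values: the glutamate carrier Slc25a22 at 1.32 ± 0.27, the carnitine and acylcarnitine exchanger Slc25a20 at 0.99 ± 0.31, the S-adenosylmethionine carrier Slc25a26 at 0.85 ± 0.16, the phosphate carrier Slc25a3 at 0.49 ± 0.09 and the citrate carrier Slc25a1 at 0.43 ± 0.15, all past the threshold.

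Close relatives within the family lay on different sides. The ADP/ATP exchanger Slc25a5, the form of dividing cells, ran from 0.51 (550-A) over 1.10 to 1.61 (547-A) and averaged 1.08 ± 0.10 (adjusted p = 1.77e-07). Slc25a4, the exchanger of heart and skeletal muscle, ran from -1.06 (548-A) over -0.40 to 0.23 (579-A) and averaged -0.43 ± 0.10 (adjusted p = 0.00206), though it did not pass on channel 1 arrays alone (-0.21). The lowest extract of the first stood above the highest of the second, so these isoforms did not overlap. None of the 6 skeletal muscle marker probes passed, and the mean of that list ran from -0.96 in 550-A to 2.95 in 546-B. Likewise the calcium-regulated ATP and phosphate carriers differed: Slc25a24 averaged -1.66 ± 0.31 (adjusted p = 0.000305), negative in 14 of 15 extracts, and Slc25a23 averaged 1.11 ± 0.26 (adjusted p = 0.00202), positive in 14 of 15. Slc25a36, a carrier of pyrimidine nucleotides, stood at -0.77 ± 0.27 (adjusted p = 0.026), while Slc25a33, which also carries them, stood at 0.48 ± 0.18 (adjusted p = 0.0386). Both aspartate and glutamate exchangers were measured: Slc25a13 passed at 0.51 ± 0.15 and Slc25a12 did not at -0.34 ± 0.14 (adjusted p = 0.056). Among 7 probes for the porins, the pyruvate carrier and related outer-membrane proteins, the channels Vdac1 (0.54) and Vdac2 (0.49) passed on the Myc side and none passed on the opposite side.

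Nucleoside, nucleotide and nucleobase carriers lay on both sides, with 3 of 7 probes on the Myc side, 1 on the opposite one and a median of 0.51 that turned to -0.36 in channel 1 alone. Beside Slc28a3, the equilibrative nucleoside transporters Slc29a1 of the cell surface and Slc29a3 of lysosomes passed. Slc29a3 ran from 0.38 (579-E) over 1.51 to 2.67 (561-B), with a mean of 1.54 ± 0.17 (adjusted p = 1.72e-06), or 1.89 and 1.33 by orientation. Slc29a1 averaged 1.31 ± 0.19 (adjusted p = 2.56e-05), from -0.14 (579-F) to 2.47 (597-B). The third, Slc29a2, stood at 0.51 ± 0.21 and did not pass (adjusted p = 0.0551). Slc43a3, a carrier of purine nucleobases, went the other way. It ran from -4.05 (579-F) over -1.61 to -0.26 (546-A), negative in all 15 extracts, and averaged -1.59 ± 0.26 (adjusted p = 8.70e-05), or -0.95 and -2.24 by orientation.

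Folate carriers of both kinds lay on the Myc side. The proton-coupled folate transporter Slc46a1 ran from 0.64 (550-A) over 1.60 to 3.73 (546-B) and averaged 1.79 ± 0.18 (adjusted p = 5.78e-07), or 2.42 and 1.31 by orientation. The reduced folate carrier Slc19a1 ran from 0.66 (579-A) over 1.89 to 2.58 (546-B) and averaged 1.71 ± 0.17 (n = 14, adjusted p = 7.05e-07), or 2.40 and 1.14 by orientation. Neither had an extract at or below 0. The thiamine transporter Slc19a2 and the lysosomal haem exporter Slc48a1, in contrast, passed on the opposite side at -0.30 ± 0.09 (adjusted p = 0.00878) and -0.68 ± 0.18 (adjusted p = 0.00461). The remaining 4 probes of the vitamin, folate and haem class did not pass.

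Nucleotide sugar carriers bring activated sugars and sulphate into the Golgi and endoplasmic reticulum for glycosylation. They passed on the Myc side in 7 of 10 probes (70.0%) and on the opposite side in 0. Over all probes, these shares were 27.1% and 15.6%. The family median was 0.58 (0.48 after centring, 0.62 and 0.54 in the 2 orientations). Slc35b2, which imports the sulphate donor PAPS, ran from 0.42 (550-A) over 1.61 to 2.74 (561-B) and averaged 1.55 ± 0.15 (adjusted p = 3.66e-07), or 2.25 and 1.0 by orientation. The CMP-sialic acid carrier Slc35a1 was positive in 15 of 15 extracts at 1.04 ± 0.11 (adjusted p = 5.23e-07). The UDP-galactose carrier Slc35a2, which supplies lactose synthesis, did not pass at 0.57 ± 0.30 (adjusted p = 0.142), with extracts from -1.0 to 4.81. Both probes of Slc35b4 stood at -0.16 and did not pass. Sialin, Slc17a5, which exports sialic acid from lysosomes, stood at 0.97 ± 0.15 (adjusted p = 6.16e-05) and was positive in every extract. Of the 8 probes of the Slc35 e, f and g groups, whose substrates are largely unknown, 4 passed on the Myc side, led by Slc35f2 at 1.19 ± 0.30. Slc35f4 was listed on the opposite side at -1.09 ± 0.26 (adjusted p = 0.0027), but with -2.45 in channel 1 and 0.57 in channel 2, and its other probe did not pass (-0.50 ± 0.38).

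Metal carriers were split by gene, with 11 of 23 probes (47.8%) on the Myc side, 6 (26.1%) on the opposite one and a median of 0.15. Both shares lay above those of all probes, 27.1% and 15.6%. Among genes of the zinc exporter family, those of the secretory pathway Slc30a5 (0.54 ± 0.12), Slc30a6 (0.58 ± 0.13) and Slc30a7 (0.61 ± 0.14) passed on the Myc side, as did the surface exporter Slc30a1 (0.69 ± 0.21). Slc30a4, the zinc exporter known for its part in milk zinc, passed on the opposite side at -0.47 ± 0.17 (adjusted p = 0.0371), from -1.20 in 546-B to 0.92 in 579-F, with 12 of 15 extracts negative. Without 546-A and 548-A it stood at -0.38 and no longer passed. Slc30a9, of the same family, also passed on the opposite side at -0.44 ± 0.11 (adjusted p = 0.00282), with 14 of 15 extracts negative. The zinc importers Slc39a4 (1.34 ± 0.29), Slc39a11 (1.03 ± 0.30), Slc39a9 (0.87 ± 0.16) and Slc39a7 (0.65 ± 0.12) passed on the Myc side, whereas Slc39a13 (-0.97 ± 0.18) and Slc39a10 (-0.65 ± 0.16) passed on the opposite side and Slc39a1 (-0.14 ± 0.19), Slc39a3 (0.13 ± 0.17) and Slc39a8 (-0.01 ± 0.18) did not pass. Both copper carriers passed on the Myc side, Slc31a2 at 1.54 ± 0.29 and the importer Slc31a1 at 0.52 ± 0.12.

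Iron carriers differed from one another. The iron exporter Slc40a1 ran from -1.91 (548-A) over 1.15 to 2.27 (579-D), positive in 14 of 15 extracts, and averaged 0.89 ± 0.23 (adjusted p = 0.00407). The importer Slc11a2 stood at 0.15 ± 0.12 (adjusted p = 0.352), and the mitochondrial iron importer Slc25a37 at -0.36 ± 0.12 (adjusted p = 0.0261), a call that ended with 1 mean per extract number (-0.31). Slc11a1, the metal carrier of macrophage phagosomes, was negative in all 14 extracts that measured it, at -0.62 ± 0.12 (adjusted p = 0.000408), yet its orientations gave -1.62 and 0.38. Beside it, 5 of 8 macrophage marker probes passed on the Myc side, and the mean of that list ran from 0.26 to 1.91. Slc15a3, a peptide and histidine carrier of lysosomes that is also found in immune cells, stood at -0.54 ± 0.16 (adjusted p = 0.00948) with both orientations negative. The part of macrophage content in either value was not tested.

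Sugar carriers passed on the Myc side in 4 of 15 probes (26.7%), a share near the 27.1% of all probes, and in none on the opposite side, with a median of 0.21 that turned to -0.15 in channel 1 alone. Apart from Slc5a1, these were the glucose-6-phosphate carrier Slc37a4 (0.44 ± 0.09), the myo-inositol importer Slc5a3 (0.52 ± 0.18, no longer past the threshold after centring, at 0.43) and the insulin-responsive glucose transporter Slc2a4. The last averaged 0.62 ± 0.20 (adjusted p = 0.0196) but had -0.35 in channel 1 and 1.33 in channel 2. Its value stood beside adipocyte markers of which 2 of 6 passed on the Myc side, with list means from -0.62 to 1.46; their part was not tested. The high-affinity glucose transporter Slc2a3 lay at -0.01 ± 0.26 (n = 14, adjusted p = 0.976), with a 579-F extract at 2.20 and a 540-B extract at -2.11.

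The lactate transporters Slc16a1 and Slc16a3 did not pass. Slc16a1 ran from -0.91 over a median of -0.15 to 0.82 and averaged -0.04 ± 0.12 (adjusted p = 0.808), and its orientations gave -0.05 and -0.04. Slc16a3 averaged -0.38 ± 0.21 (adjusted p = 0.165), with -1.02 and 0.25 in the 2 orientations. Other members of the family did pass: Slc16a7, a high-affinity monocarboxylate transporter, at 1.00 ± 0.26 and Slc16a9 at 0.66 ± 0.18 on the Myc side, and Slc16a13 on the opposite side. Slc16a13 was negative in all 15 extracts, from -2.91 (550-A) over -1.29 to -0.55 (595-A), with a mean of -1.46 ± 0.18 (adjusted p = 3.79e-06) and -1.61 and -1.28 in the 2 orientations. Among carrier chaperones and kinases, 5 of 11 probes passed on the Myc side, while Bsg, the chaperone of Slc16a1 and Slc16a3, gave -0.21 ± 0.11 (adjusted p = 0.127).

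Ion carriers differed by family. Phosphate carriers passed on the Myc side in 3 of 5 probes, and cation-chloride cotransporters in 2 of 6 with 1 more on the opposite side, where 42.7% of all probes passed on either side. Slc12a2, the sodium, potassium and chloride cotransporter of secretory epithelium, was positive in all 15 extracts, from 0.27 (579-F) over 0.82 to 3.19 (579-D), and averaged 1.11 ± 0.22 (adjusted p = 0.000569), or 1.10 and 1.12 by orientation. Its relative Slc12a9 passed on the Myc side at 0.51 ± 0.14, and the potassium and chloride cotransporter Slc12a4 passed on the opposite side at -1.02 ± 0.15 (adjusted p = 3.32e-05). Slc34a2, the sodium phosphate cotransporter of secretory epithelia, averaged 1.33 ± 0.30 (adjusted p = 0.00177), but this came from channel 2 (2.59) and not from channel 1 (0.07). The sodium phosphate cotransporter Slc34a1 (0.54 ± 0.19, n = 13) and the phosphate importer Slc20a2 (0.59 ± 0.12) passed, and its relative Slc20a1 did not, at 0.14 ± 0.17. Of 6 bicarbonate carriers 1 passed, the anion exchanger Slc4a2 at 0.48 ± 0.13, and the red cell anion exchanger Slc4a1 stood at 0.00 ± 0.27 beside the erythroid markers, 2 of 3 of which passed on the Myc side. No sodium-proton exchanger (3 probes) and no anion or sulphate carrier (3 probes) passed.

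The smaller families gave mixed calls. For the calcium exchanger Slc24a2, 2 probes passed on different sides (0.79 ± 0.29 and -0.44 ± 0.12), so the gene has no single direction here. The sodium-calcium exchanger Slc8a1, measured by a dim probe, stood at 1.05 ± 0.24, or 0.69 and 1.81 by orientation. Neurotransmitter, taurine and creatine carriers passed on the Myc side in 5 of 7 probes, among them both probes of the noradrenaline transporter Slc6a2 (0.85 ± 0.10, and 0.50 ± 0.14 with -0.22 and 1.25 by orientation) and the taurine transporter Slc6a6 (0.35 ± 0.13, adjusted p = 0.0306, but 0.24 and not past the threshold after centring). Organic anion and bile acid carriers passed in 2 of 11 probes and choline and organic cation carriers in 3 of 10, of which Slc44a2 lay on the opposite side (-0.72 ± 0.19). Fatty acid transport genes differed too, with Slc27a4 (0.46 ± 0.10) and Slc27a5 (0.53 ± 0.11) on the Myc side, each negative in channel 1 (-0.15 and -0.72) and positive in channel 2 (1.07 and 1.78), and Slc27a1 (-0.57 ± 0.18) on the opposite side. Slc66a2, a gene of the PQ-loop group, averaged 2.0 ± 0.23 (n = 14, adjusted p = 3.17e-06), or 2.32 and 1.93 by orientation, with every measured extract positive. For comparison, 11 of 28 probes of genes named Abc passed on the Myc side and 7 opposite to it, where 27.1% and 15.6% of all probes did. Most of these genes encode ATP-driven transporters. Abce1, which did not pass, and Abcf1 (1.10) and Abcf3 (0.52), both among the 11, are not membrane transporters. The Slco organic anion carriers gave 1 and 0 of 7 probes. Of 7 probes of the sodium pump and its regulators, 2 passed on the Myc side and 1, Fxyd5 at -1.53, on the opposite side.

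Whether extracts differed from one another was asked with an F-test that uses the 30 arrays singly and holds a term for the dye, where the error is the difference between the 2 arrays of an extract. It found 7 solute carrier probes (3.38%), close to the 3.84% of all probes that passed. They were Slc29a1 (adjusted p = 0.00271), Slc38a1 (adjusted p = 0.0028), Slc30a4 (adjusted p = 0.00343), Slc25a39 (adjusted p = 0.0158), Slc35f6 (adjusted p = 0.0247), Slc7a5 (adjusted p = 0.0322) and Slc25a44 (adjusted p = 0.0339). Only Slc29a1 and Slc38a1 passed in each setting tried. After centring 6 solute carrier probes passed, of which 2 were shared with the 7, beside 547 of all 16124 probes. Without 546-A and 548-A 4 of the 7 passed, and Slc35f6 (adjusted p = 0.214), Slc7a5 (adjusted p = 0.0585) and Slc25a44 (adjusted p = 0.054) did not.

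Slc38a1 stood at -0.72 in 550-A, near 0 in 567-B (0.21) and 579-A (0.37), and high in 546-A (3.05), 561-B (2.14) and 548-A (2.02). The amino acid importer Slc7a5 was also lowest in 550-A (-0.06), but was high in 579-A (2.33), where Slc38a1 was low. The glutathione carrier of mitochondria, Slc25a39, was below 0 in 550-A alone (-0.56) and highest in 579-D (1.77). The 2 extracts described under tumour progression thus took different places in these genes, since 561-B held 2.14 for Slc38a1, 2.04 for Slc7a5 and 1.48 for Slc25a39. Their medians over all probes differed too, at -0.19 in 550-A and 0.45 in 561-B. After centring, Slc7a5 and Slc25a39 no longer passed the F-test between extracts (adjusted p = 0.408 for each). Nor did they without the dye term (adjusted p = 0.304 and 0.887).

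Slc29a1 was lower in the extracts of number 579, from -0.14 (579-F) to 0.99 (579-E), than in most others, which ran from 0.84 (547-A) to 2.47 (597-B), so the groups overlapped narrowly. The mean of the endothelial markers overlapped as well, from 0.42 to 1.48 in number 579 and from 0.38 to 2.02 in the others. That of the epithelial markers ran lower in number 579, from 1.89 to 2.76, than in the others, from 2.46 to 3.49. Its means in 579-D, 579-E and 579-F lay below those of all extracts with other numbers. Slc30a4 was above 0 in 579-F (0.92), 579-E (0.84) and 595-A (0.38), and below 0 in the other 12 extracts, down to -1.20 in 546-B and 548-A. In those 3 extracts the mean of the milk and alveolar markers was 4.16, 1.35 and 6.98, and that of the epithelial markers 1.89, 2.30 and 3.09, so neither list was high or low in all of them. The part of cell composition in these differences was not tested.

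**Figure D5:**
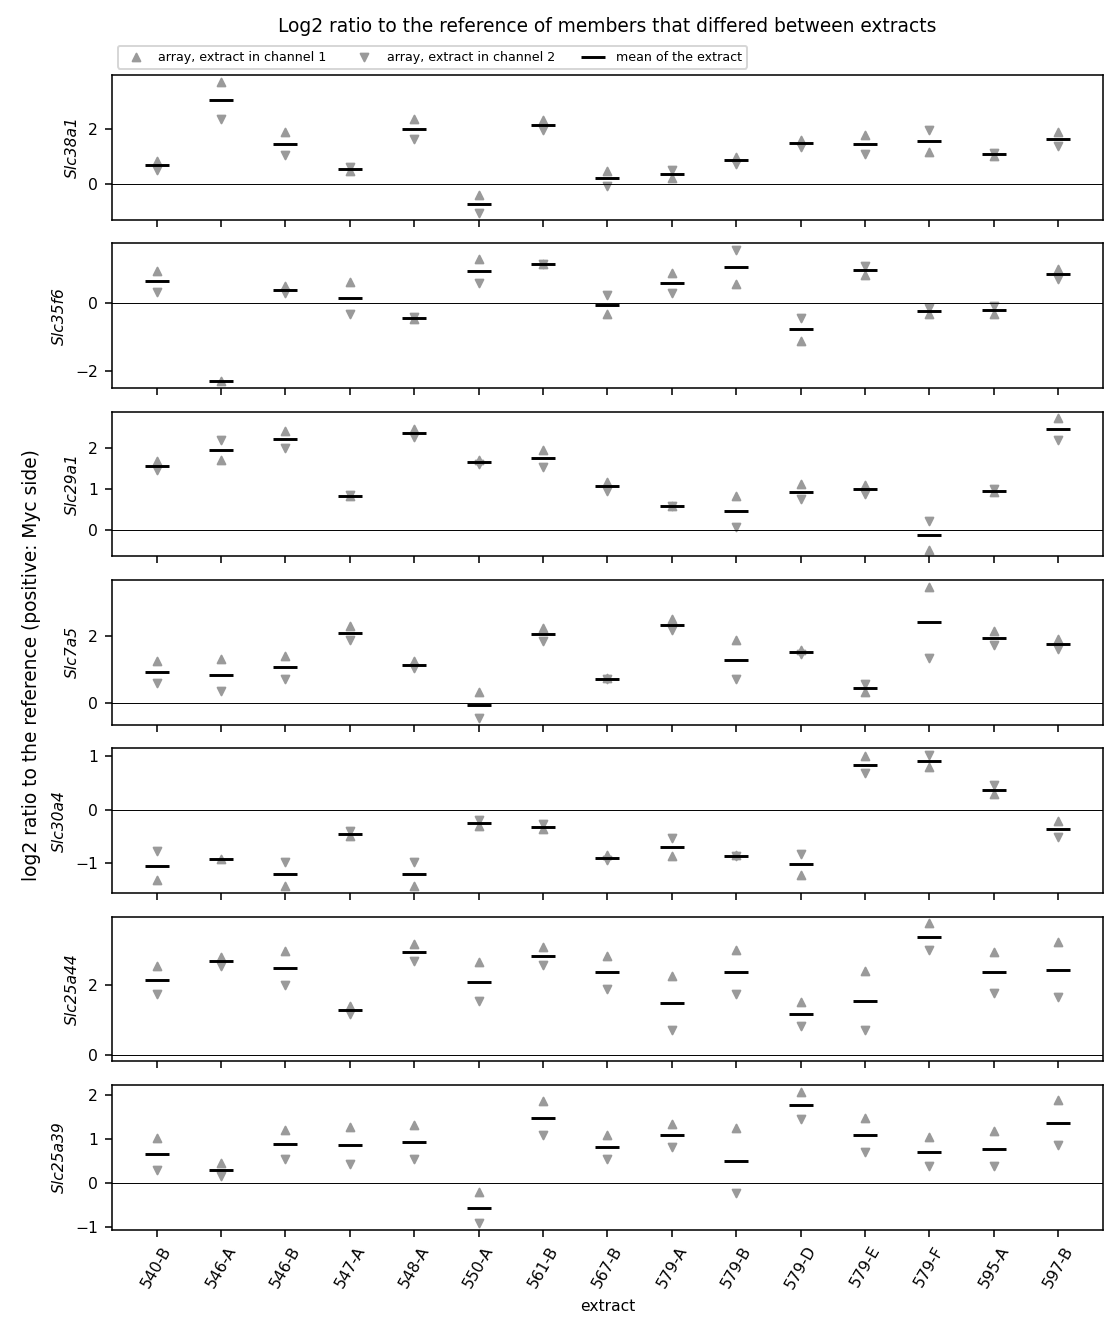
Log2 ratio to the reference (vertical axis, positive toward the Myc side) in each of the 15 extracts for the 7 solute carrier genes that differed between extracts; triangles are single arrays with the extract in channel 1 (up) or channel 2 (down), and bars are extract means. Slc38a1 and Slc7a5 are lowest in 550-A, Slc30a4 is above 0 in 579-E, 579-F and 595-A, and the bar of Slc35f6 in 546-A (-2.32) rests on 1 array.

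Extremes of single probes gathered in a few extracts. The lowest value of a solute carrier probe lay in 548-A for 42 probes, in 550-A for 41 and in 546-A for 27, and the highest lay in 561-B for 38 and in 546-A for 34. Of these, 12 of the 42 in 548-A, 15 of the 27 and 17 of the 34 in 546-A rested on 1 array, where the effect of orientation does not cancel. The median over solute carrier probes was lowest in 550-A (-0.15) and 548-A (-0.06) and highest in 561-B (0.80). Medians of all probes were -0.19, -0.25 and 0.45 in the same extracts. Other extracts did not follow this: 579-D, with a median of all probes of -0.20, held 18 lowest values. In 546-A, with its 27 lowest values, the median of all probes was 0.24. The part of the array level in these extremes was not tested.

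Number 579, set against the other numbers, gave no solute carrier probe past the threshold. The count was 0 of 207 and 0.0% of all 16124 probes with limma, and at an unadjusted p under 0.05 it was 9 solute carriers (4.35%) and 600 probes in all (3.72%). The smallest unadjusted p values belonged to Slc29a1, Slc35a5 and Slc35b1. Slc29a1 averaged 0.56 in number 579 and 1.69 in the others, a difference of -1.13 ± 0.31 (SE, 5 and 10 extracts, adjusted p = 1.00). The nucleotide sugar family members Slc35a5 and Slc35b1 gave differences of -0.58 ± 0.23 and 0.66 ± 0.26, with the same adjusted p.

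The 2 extracts described under tumour progression, set against the 12 under epithelial to mesenchymal transition, likewise gave 0 solute carriers and 0.0% of all 16123 probes fitted, and at an unadjusted p under 0.05 gave 12 solute carriers (5.80%) and 672 probes in all (4.17%). The smallest unadjusted p values belonged to Slc38a9, Slc5a3 and Slc7a3. Slc5a3, the myo-inositol importer, stood at -1.0 in 561-B and -0.26 in 550-A, below the mean of 0.60 in the others, a difference of -1.23 ± 0.37 (adjusted p = 0.976). Slc38a9 stood at 1.44 in 550-A and 0.54 in 561-B beside a mean of -0.47, a difference of 1.47 ± 0.42 (adjusted p = 0.946) in a fit without 546-A and 548-A, which had no value for it. Slc7a3 differed by 1.94 ± 0.65, but this rested on 550-A (2.81), as 561-B stood at -0.20. With 561-B left out, which leaves 550-A alone and assumes that it varies like the others, 1 solute carrier passed among 22 probes in all. It was Slc25a23, at -2.25 in 550-A against a mean of 1.27, a difference of -3.51 ± 0.57 (adjusted p = 0.039), while with 550-A left out its difference was 0.54 ± 0.57.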

How the data were processed

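The deposited table holds log2 ratios of the 2 channels of 30 arrays, as read from the values, with dyes, scanner, background correction and normalization not given in the sources used here. The value 16.61, a placeholder, was treated as missing, which removed 43 values in 37 member probes. Arrays with the extract in channel 2 were turned in sign and the arrays of an extract averaged to 1 of 15 values. Probes with values on at least 24 arrays were fitted with limma 3.58.1 in R 4.3.3 (lmFit, eBayes, Benjamini-Hochberg over all 16124 probes, threshold 0.05): extract means against 0, number 579 against the others, and tumour progression against epithelial to mesenchymal transition without 595-A. The reference is 1 RNA, whose own spread the tests leave out. Extracts were compared with one another on single arrays by an F-test with a dye term, computed for each probe from its own residual sums of squares because values are missing, with limma's moderated variance. The fits were tested on simulated data.

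The members and all lists were chosen with earlier results of these data known. Named genes were the 12 farthest on each side among those past the threshold and on 1 side in every extract (4 met this on the opposite side), those past the F-test, the 3 with the smallest p in each group comparison, and a list of 35 carriers of mammary tissue, tumours and metals, of which 28 were members, 2 had too few values and 5 had no single-symbol probe. Others are named as examples of their family after their values were seen. Substrate families came from a written table, in which Slc7a6os, Slc8b1 and Slc17a9 were moved after values were seen. Symbols came from the platform annotation, which can be old, and all 207 probes were found by gene identifier in the RefSeq table of GRCm38.p6. Promoter sequences are RefSeq's of that build. Array number limits the precision. Alternatives tried were centring, each orientation alone, probes on all arrays, no dim probes, no 546-A and 548-A, the extract number as a block or as 1 mean, no dye term and left-out extracts.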

Additional observations from a re-analysis of the deposited data

Results flagged for a closer look

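Single extracts lay far from the rest of their label group for 6 of 96 sets of values examined over the named genes, 5 extracts of number 579 or 10 of other numbers each; chance sets apart about 1 in 20 sets by this criterion, the gap to the nearest extract over the whole range. In number 579, 579-D stood at 3.19 for Slc12a2, with the next at 0.77. In the other numbers, 550-A stood at -2.67 for the cationic amino acid importer Slc7a1, with the next at -0.09, and at 2.81 for its relative Slc7a3, with the next at 0.16, the latter on 1 array. The extract 547-A stood at 1.30 for Slc25a44, with the next at 2.11. On 1 array each, 546-A stood at -2.32 for Slc35f6, with the next at -0.46, and 548-A at -1.91 for Slc40a1, with the next at 0.73.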

How the results depend on the processing

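Of the 108 solute carrier calls against the reference, all 78 Myc-side calls after centring were among the 87 made without it, and all 21 on the opposite side were kept. Of the 87, channel 1 alone shared 57 and channel 2 alone 69; of the 21, they shared 12 and 16. Channel 1 alone raised the opposite side to 42, and over all 16124 probes it gave 8900 calls, 3484 of them toward Myc. With probes measured on all arrays, 74 members, 52 passed, 46 toward Myc and 6 opposite. Of all 6801 such probes 4047 passed, 2676 of them toward Myc. Fewer members were tested in this setting. Between extracts, 4 of 207 passed with no dye term, beside 284 of all 16124 probes. With probes on all arrays 12 of 74 passed, beside 952 of all 6801. Without 546-A and 548-A 4 of 207 passed, beside 370 of all 16124. Leaving out each progression extract gave 0 to 1 members, and leaving out each 579 extract gave 0 to 0. Of 48 named genes, 10 had opposite signs in the 2 orientations. In 4 of them the sign turned in the orientation named and either the average or that orientation passed the threshold: Slc2a4 in channel 1 (-0.35), and Slc11a1 (0.38), Slc35f4 (0.57) and Slc7a2 (0.80) in channel 2; the cause was not tested. With the extract number as a random block (correlation 0.0137), no call of the 48 changed, and Slc4a1, which did not pass, went from 0.00 to -0.01. Centring ended the call against the reference of 3 (Slc35a5, Slc5a3, Slc6a6), and leaving out 546-A and 548-A of 2 (Slc30a4, Slc5a3). No paired analysis was made, because the labels give no pairing between extracts of the groups compared. Array noise between paired arrays limits what the differences between extracts can show.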
